A study of Mus musculus with 225 samples.

Results

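The genes described here are 8 genes of cell and matrix adhesion that are known from the condensation of limb mesenchyme, *Cdh2*, *Cdh11*, *Ncam1*, *Fn1*, *Itga5*, *Itgb1*, *Cd44* and *Vcan*. They were chosen by symbol among the 23165 genes of the deposited raw counts, which hold all 8, while the deposited table of 10948 normalized genes holds 7 of them and not *Cd44*. Their reads came from mouse forelimb cells at E12.5, taken 1 by 1 from the autopod, which gives rise to the digits, and from the zeugopod, which gives rise to the forearm. All embryos were heterozygous for *Hoxd11::GFP*, a tau-GFP sequence knocked into *Hoxd11* on a mixed C57Bl6CBAF1 background, no other genotype or treatment was used, and the cells were the 20% with the brightest GFP. The sampled cells are therefore those in which this *Hoxd11* reporter was strong, and cells of the limb without it were not sampled. Forelimbs were pooled before dissociation and the labels tie no cell to an embryo, so each tissue is 1 sample, cells are not replicates, and every value below is a description with no p-value.

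Cartilage of the limb begins as mesenchymal condensations, in which loose cells draw together and adhere before they lay down cartilage matrix. N-cadherin (*Cdh2*) and cadherin-11 (*Cdh11*) are calcium-dependent cell adhesion molecules, and NCAM (*Ncam1*) is an adhesion molecule of the immunoglobulin type that does not need calcium. Fibronectin (*Fn1*) is an adhesive glycoprotein of the early matrix and is bound by the receptor that integrin alpha-5 (*Itga5*) and integrin beta-1 (*Itgb1*) form together. Versican (*Vcan*) is a large proteoglycan that binds hyaluronan, and CD44 is a receptor for hyaluronan on the cell surface. *Sox9*, a transcription factor needed for condensation, and *Col2a1*, the gene of the main cartilage collagen, were used as chondrogenic markers.

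Of the 225 captured cells the authors retained 199, which form 4 sets by the tissue and the sequencing run given in the labels. The autopod comprised 59 cells of run NXT0072 and 17 cells of NXT0143, and the zeugopod 58 cells of NXT0142 and 65 cells of NXT0143. The tissues share only NXT0143, so elsewhere tissue and run cannot be told apart. Reads on genes ranged from 187344 to 9437447 per autopod cell and from 186271 to 6801278 per zeugopod cell, and the sets had medians of 3528 to 4283.5 genes with at least 1 read, the number meant below by the genes read in a cell. Detection of a single gene in a cell required 5 reads or more. Levels were taken from the authors' normalized values, which are scaled to spike-in RNA and divided by gene length, so that levels can be compared between genes. A cell with no read of a gene sits at a floor of 1 divided by the length of the gene in kb. None of the 199 cells had the required number of markers of muscle, epithelium, endothelium, blood, macrophages or Schwann cells, although only 1 of the 4 blood genes is in the counts. In the zeugopod, 11 cells of NXT0142 and 6 of NXT0143 had at least 2 of the 3 tendon markers *Scx*, *Tnmd* and *Tnc*, against 0 of the 76 autopod cells (so that a share up to 3.95% is possible). In all, 68 cells had at least 5 reads of 1 or more markers of the types other than tendon.

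The bases before the start, as given by RefSeq entries, were examined in 4 of the 8 genes. The other genes were not examined, and no count of matches is given for them. The 250 bases before the start are shown for *Vcan*, whose level followed the chondrogenic markers as described below, and for *Itga5*, which held the single match among the 4 windows. Capitals mark the core motif of SOX proteins, searched as ACAAT and, for the other strand, ATTGT, in GRCm38.p6 at chr13:89742513-89742762 for *Vcan* and chr15:103366792-103367041 for *Itga5*, both written along the minus strand.
Vcan: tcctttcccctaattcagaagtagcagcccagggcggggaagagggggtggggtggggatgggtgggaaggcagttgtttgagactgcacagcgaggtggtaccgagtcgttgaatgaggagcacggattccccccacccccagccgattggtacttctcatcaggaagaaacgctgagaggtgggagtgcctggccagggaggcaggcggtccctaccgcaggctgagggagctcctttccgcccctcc
Itga5: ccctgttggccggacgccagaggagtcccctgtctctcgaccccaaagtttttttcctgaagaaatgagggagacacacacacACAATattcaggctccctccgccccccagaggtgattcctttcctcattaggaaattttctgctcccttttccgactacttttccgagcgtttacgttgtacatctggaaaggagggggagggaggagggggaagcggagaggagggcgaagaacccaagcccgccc
The *Vcan* window holds no match in these letters and is 62.4% G or C, and the *Itga5* window holds 1 match and is 55.6% G or C. Of all 32851 windows of this length, 27.7% hold a match. The windows of *Itgb1* and *Cd44* hold none. These are matches of letters in a short window and not sites of binding.

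The 8 genes lie on 7 chromosomes of GRCm38, as annotated by GENCODE. *Cdh2* lies at chr18:16588877-16809246, *Cdh11* at chr8:102632095-102785642, *Ncam1* at chr9:49502136-49798925, *Fn1* at chr1:71585520-71653200, *Itga5* at chr15:103344286-103366763, *Cd44* at chr2:102811141-102901665 and *Vcan* at chr13:89655312-89742509, all on the minus strand. *Itgb1* lies on the plus strand at chr8:128685654-128733200. The library kit does not mark the strand of a read, and 2 genes share positions with a counted gene, *Fn1* with *Apol7d* on the opposite strand and *Itga5* with *Mir6963* within it. Reads of these pairs may not be told apart.

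Both integrin subunits, fibronectin, the cadherins, NCAM and versican were read in every set, while *Cd44* was nearly absent. *Cdh11*, *Fn1*, *Itgb1* and *Vcan* were detected in at least 50% of the cells of every set, which is 4 of 8 genes where 3.45% of all counted genes and 7.31% of the normalized genes reach this frequency. *Vcan* was the most frequent over all cells (162 of 199, 81.4%, exact 95% interval 75.3 to 86.6), followed by *Fn1* (158 cells, 79.4%), *Cdh11* (150, 75.4%), *Itgb1* (141, 70.9%) and *Ncam1* (135, 67.8%). The intervals of neighbours in this order overlap. *Itga5* was detected in 48 cells (24.1%, 18.4 to 30.7) and *Cdh2* in 42 (21.1%, 15.6 to 27.4), and their intervals lie below those of the 5 frequent genes. These intervals cover counting error over cells only, not differences between embryos or runs. The reads carry no molecular identifiers, so they are not counts of molecules. After each cell was thinned to 500000 reads on genes, which left 191 cells, the shares were lower at 74.3% for *Vcan*, 73.8% for *Fn1*, 67.02% for *Cdh11*, 63.4% for *Itgb1*, 60.7% for *Ncam1*, 19.4% for *Itga5* and 15.2% for *Cdh2*.

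**Figure D1:**
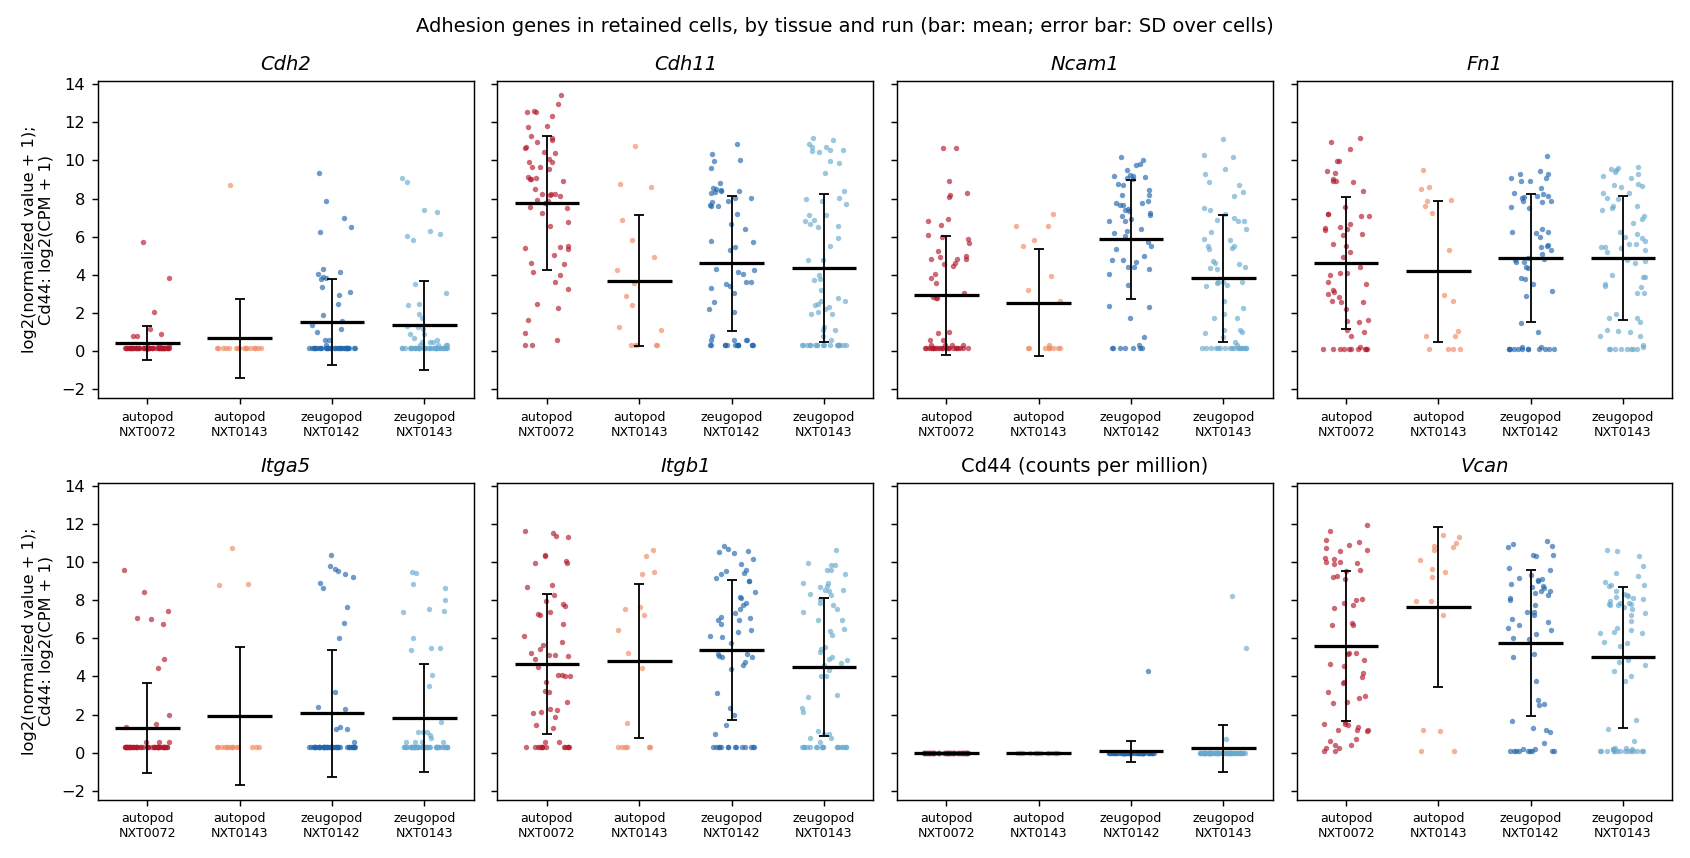
Level of each adhesion gene in each retained cell (points), by tissue and run, as log2(normalized value + 1), or for *Cd44* as log2(CPM + 1), where CPM is reads scaled to 1000000 reads on genes. Bars are means and error bars SD over cells. Every set holds cells at the floor, *Cdh11* is highest in the autopod cells of NXT0072 (mean 7.78), and the few cells with *Cd44* are zeugopod cells.

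N-cadherin was rare and was found more often in the zeugopod. *Cdh2* was detected in 4 of 59 autopod cells of NXT0072 (6.78%) and 1 of 17 of NXT0143 (5.88%), against 20 of 58 zeugopod cells of NXT0142 (34.5%) and 17 of 65 of NXT0143 (26.2%). Its median normalized value was the floor of 0.124 in all 4 sets, and the highest values were 51.1, 417, 638 and 549 in the order just given. The gene thus showed as a small number of cells above a large group at the floor. Over all cells the mean log2(value + 1) was 0.47 ± 1.24 in the autopod and 1.42 ± 2.29 in the zeugopod (SD over cells), a difference of -0.95 that stayed short of 2-fold. It was -0.68 within NXT0143 and -1.09 between NXT0072 and NXT0142. In CPM it was past 2-fold in each of these comparisons, at -1.34, -1.23 and -1.37. On thinned cells the shares were 4.17% (0.868 to 11.7) and 21.8% (14.8 to 30.4), with intervals that do not overlap. These intervals pool the runs of a tissue and cover counting error over cells, not differences between embryos or runs.

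Cadherin-11 stood out in a single set. Its median normalized value in the autopod was 306 for run NXT0072 and 6.38 for NXT0143, and in the zeugopod 17.4 for NXT0142 and 5.91 for NXT0143. The highest values were 10909, 1720, 1892 and 2314, so that the ranges overlap while the autopod cells of NXT0072 reach furthest. The means on the log2 scale were 7.78 ± 3.51, 3.69 ± 3.43, 4.597 ± 3.53 and 4.35 ± 3.88 (SD over cells). Over all cells the autopod exceeded the zeugopod by 2.40, past the 2-fold threshold. It was 1 of 2 members past this threshold, with *Ncam1* in the other direction. Of the 4898 genes tested, each detected in 25% or more of the cells in 1 of the tissues, 6.06% were higher by at least 1 and 13.4% lower in this comparison. The difference of *Cdh11* was 3.18 between NXT0072 and NXT0142, but -0.66 within NXT0143, where both tissues were in the same run. The 2 runs of the autopod differed by 4.09, more than 99.96% of the tested genes, against 0.25 between those of the zeugopod. *Cdh11* was not alone in this respect, since 48.6% of the tested genes changed sign between the 2 run comparisons. Its higher level in the autopod therefore rested on NXT0072.

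NCAM was lower in the autopod in every comparison. *Ncam1* was detected in 32 of 59 autopod cells of NXT0072 (54.2%), 8 of 17 of NXT0143 (47.1%), 49 of 58 zeugopod cells of NXT0142 (84.5%) and 46 of 65 of NXT0143 (70.8%). The median normalized values were 1.03, 0.258, 113.1 and 11.2, and the highest 1615, 144, 1154 and 2269. Single autopod cells therefore reached the level of the zeugopod, while the autopod medians stayed near the floor of 0.129. The difference of means was -1.92 over all cells, -1.27 within NXT0143 and -2.92 between NXT0072 and NXT0142. It was at most -1 in both run comparisons, as it was for 4.12% of the tested genes, and no member was at least 1 in both, as 1.98% of the genes were. The zeugopod runs themselves differed by 2.05 (NXT0142 above NXT0143, higher than 99.1% of the tested genes), so the size of the difference depended on the run while its direction did not.

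**Figure D2:**
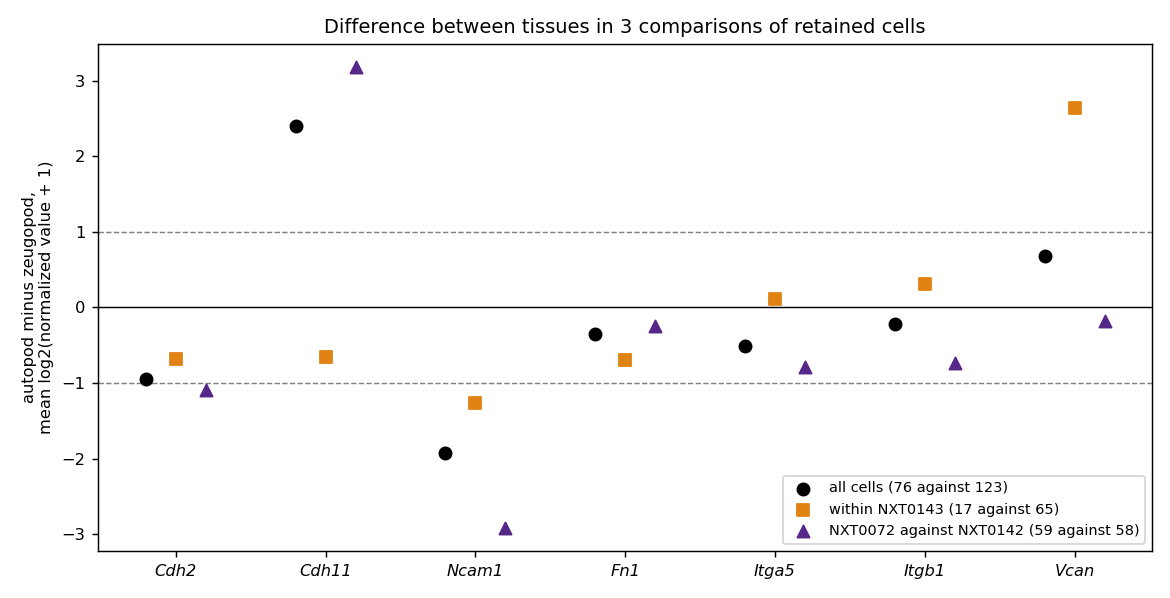
Difference between autopod and zeugopod in mean log2(normalized value + 1) for the 7 genes of the normalized table (vertical axis), over all retained cells (circles), within run NXT0143 (squares) and between runs NXT0072 and NXT0142 (triangles). Dashed lines mark 2-fold. *Ncam1* lies at or below -1.27 in the 3 comparisons, and *Cdh11* lies above 2 in 2 of them and at -0.66 within NXT0143.

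Fibronectin and its integrin receptor differed little between the tissues. *Fn1* was detected in 48 of 59 (81.4%), 11 of 17 (64.7%), 43 of 58 (74.1%) and 56 of 65 (86.2%) cells of the autopod NXT0072, autopod NXT0143, zeugopod NXT0142 and zeugopod NXT0143 sets. Its median normalized values were 16.2, 6.73, 35.8 and 41.3 in this order, and the difference of means between the tissues was -0.35 over all cells, -0.69 within NXT0143 and -0.25 between NXT0072 and NXT0142. No comparison reached 2-fold on this scale. With CPM in place of normalized values the difference within NXT0143 was -1.58. *Itgb1*, the beta subunit that many alpha subunits share, had medians of 15.9, 36.8, 66.97 and 24.9 and tissue differences of -0.22, 0.32 and -0.73. *Itga5* was at its floor of 0.227 in the median of every set, with highest values of 765, 1738, 1343 and 715 and tissue differences of -0.51, 0.11 and -0.79. For both integrin genes the sign within NXT0143 was opposite to that of the other comparisons, but in CPM it was negative there too (-0.18 for *Itga5* and -0.14 for *Itgb1*). None of these differences reached 2-fold.

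*Itgb1* was detected in most cells both with and without its partner *Itga5*. Of the 48 cells with *Itga5*, 39 also had *Itgb1* (81.2%, 67.4 to 91.1), against 67.5% of the 151 cells without *Itga5* (59.5 to 74.9), with intervals that overlap. In the autopod the shares were 7 of 10 against 71.4% in NXT0072 and 2 of 3 against 64.3% in NXT0143. In the zeugopod they were 81.2% against 71.4% in NXT0142 and 89.5% against 60.9% in NXT0143. The intervals overlapped in each set, at the widest gap with 66.9 to 98.7 against 45.4 to 74.9. The gap was wider in the zeugopod, but with these intervals no difference between the tissues can be read. The median number of genes read in a cell was 3925.5 in all cells with *Itga5* and 3923 in those without it. *Fn1*, the ligand, was detected in 36 of the 48 cells with *Itga5* (75.0%, 60.4 to 86.4) and in 80.8% of the 151 without it (73.6 to 86.7). All 3 genes of ligand and receptor were detected together in 30 cells, 15.1% of the 199.

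Versican reached high levels in both tissues. *Vcan* was detected in 53 of 59 (89.8%), 15 of 17 (88.2%), 47 of 58 (81.03%) and 47 of 65 (72.3%) cells of the 4 sets in the order used above. The median normalized values were 35.8, 722, 120.8 and 77.97 and the highest 3906, 2791, 2212 and 1580, with cells near the floor of 0.0691 in every set. Per length, its median was the highest of the 7 normalized genes in 3 of the 4 sets, *Cdh11* leading in the autopod of NXT0072, and in the zeugopod of NXT0142 it lay within the spread of *Ncam1*. The tissue difference was 0.68 over all cells and 2.64 within NXT0143, but -0.18 between NXT0072 and NXT0142. Within NXT0143, 18.4% of the tested genes were higher in the autopod by at least 1. In CPM the differences were 2.83 within NXT0143 and 0.07 between NXT0072 and NXT0142, so that the sign of the last comparison depended on the scale and its size was small on both.

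*Cd44*, by contrast, was at 5 reads or more in none of the 76 autopod cells, so that a share up to 3.95% is possible, and in 3 zeugopod cells (2.44%, 0.506 to 6.96). A further zeugopod cell had 2 reads, beside 7140 reads of *Sox9* and 24 of *Col2a1*. The 3 cells held 1139 and 154 reads (both NXT0143) and 79 reads (NXT0142). None of the 3 had a read of *Sox9*, while *Col2a1* had 834, 47 and 0 reads in them. Each had *Fn1* (3849, 4801 and 2828 reads) and *Prrx1*, a gene of limb mesenchyme (2743, 1414 and 1700 reads). These cells had 5598, 5431 and 4977 genes read, more than 94.5%, 92.5% and 84.9% of the retained cells. With 3 cells no relation to the markers can be read.

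The relation to cartilage differentiation was taken within each set, by comparing the cells with at least 5 reads of both *Sox9* and *Col2a1* with the other cells. There were 29 against 30 such cells in the autopod of NXT0072, 34 against 24 in the zeugopod of NXT0142 and 39 against 26 in that of NXT0143. The autopod of NXT0143 held 14 against 3 and was left out of calls, which needed at least 5 cells on each side. *Vcan* was higher in cells with both markers by at least 1 in the 3 sets compared, and *Ncam1* was lower by at least 1 in these sets. Of the 4896 genes tested, 0.388% (19 genes) were higher in this way and 1.16% (57 genes) lower.

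For *Vcan*, the autopod cells of NXT0072 with both markers had values from 0.207 to 2286 with a median of 215, and the others from 0.0691 to 3906 with a median of 7.32. In the zeugopod of NXT0142 the medians were 406 (0.0691 to 2212) with both markers and 3.07 (0.0691 to 353) without. In that of NXT0143 they were 213 (0.0691 to 1580) and 0.173 (0.0691 to 897). The ranges overlapped in the 3 sets, and in each of them the median was higher with both markers. The differences of means were 2.73, 4.24 and 3.47 on the log2 scale, beyond 99.86%, 99.88% and 99.94% of the tested genes in the respective sets. The set left out gave 5.58, with a median of 963 in 14 cells and 1.17 in 3. In CPM, which does not use the spike-ins, the differences were 3.46, 4.99 and 4.43. The mean over the 3 sets, 3.48, ranked 4 of 4896 genes.

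**Figure D3:**
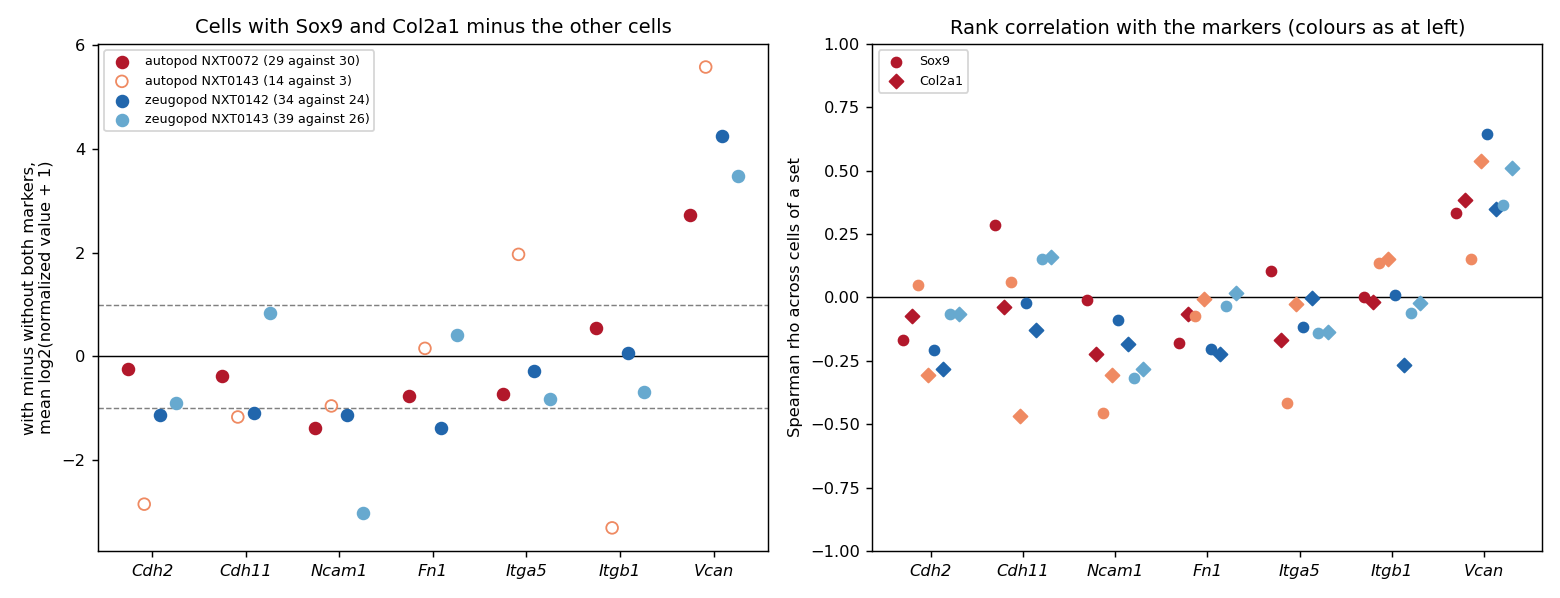
Left, difference in mean log2(normalized value + 1) between cells with at least 5 reads of *Sox9* and *Col2a1* and the other cells of the same set (vertical axis), for 7 genes; open circles mark the set with 3 cells on a side, and dashed lines 2-fold. Right, Spearman rho of each gene with *Sox9* (circles) and *Col2a1* (diamonds) across the cells of each set. *Vcan* is the only one of the 7 genes above the line of 2-fold in all 3 compared sets.

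The share of cells with detected *Vcan* moved in the same direction, to a different extent in each set. It was 27 of 29 with both markers (93.1%, 77.2 to 99.2) and 26 of 30 without (86.7%, 69.3 to 96.2) in the autopod of NXT0072, where the intervals overlap. In the zeugopod it was 33 of 34 (97.1%, 84.7 to 99.9) against 14 of 24 (58.3%, 36.6 to 77.9) in NXT0142 and 35 of 39 (89.7%, 75.8 to 97.1) against 12 of 26 (46.2%, 26.6 to 66.6) in NXT0143. There the intervals do not overlap, but they cover counting error over cells only.

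Splitting the cells by each marker showed which cells had little *Vcan*. In the autopod *Sox9* was detected in 72 of the 76 cells, so that only 4 cells could show *Col2a1* alone, and none did. The median of *Vcan* there was 603 in the 43 cells with both markers against 6.42 in the 29 cells with *Sox9* alone. These 2 classes hold the runs in unlike shares. By run the medians were 215 (29 cells) against 7.32 (26 cells) in NXT0072 and 963 (14 cells) against 1.17 (3 cells) in NXT0143. In the zeugopod, with runs pooled, the median of *Vcan* was 230 in the 73 cells with both, 4.70 in the 39 with *Col2a1* alone, 0.104 in the 6 with *Sox9* alone and 0.0691, the floor, in the 5 with neither. By run, it was 406 with both, 3.07 with *Col2a1* alone (20 cells) and 130 with *Sox9* alone (2 cells) in NXT0142. In NXT0143 it was 213, 25.8 (19 cells) and 0.104 (4 cells), so the low value with *Sox9* alone was not seen in both runs. Cells with 1 marker alone thus had a lower median of *Vcan* than cells with both in each tissue, although single cells with *Sox9* alone in the autopod reached 3906. The 4 autopod cells with neither marker had a median of 56.2.

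**Figure D4:**
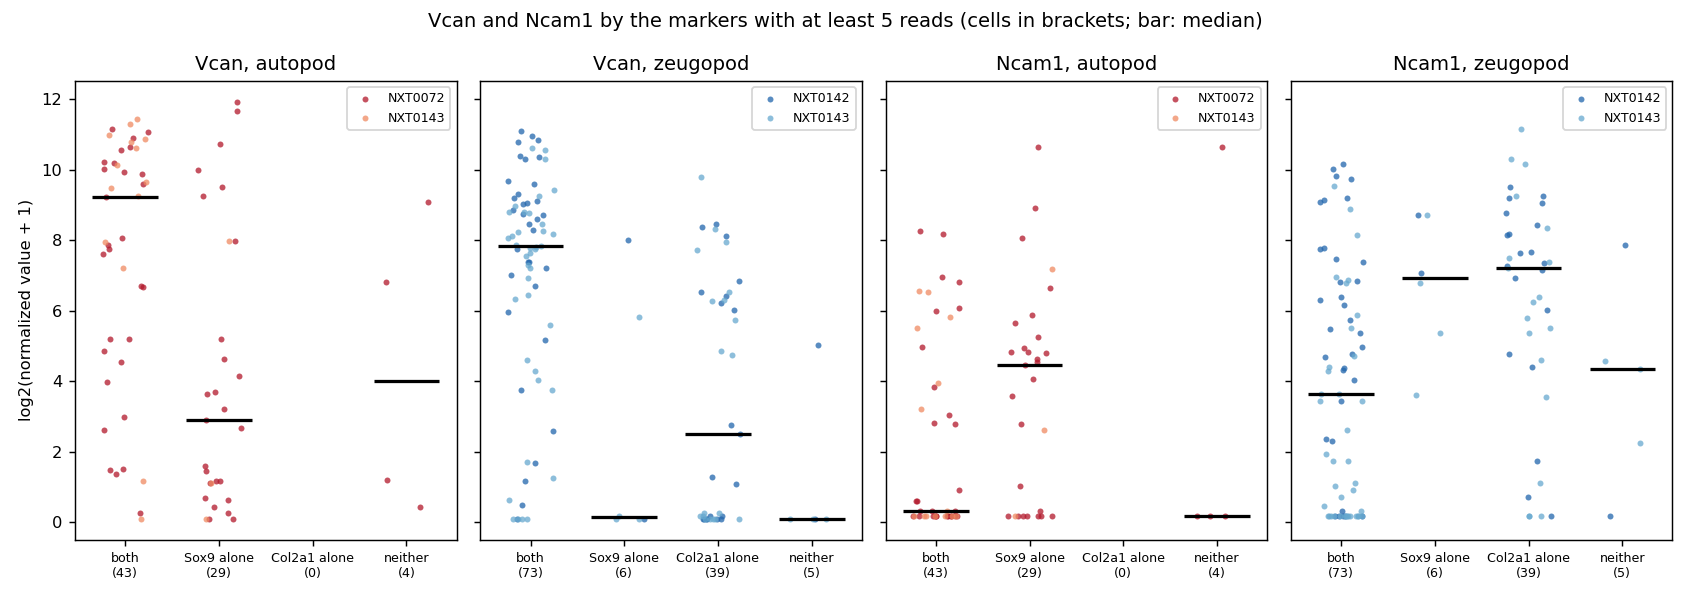
Level of *Vcan* and *Ncam1*, as log2(normalized value + 1), in retained cells grouped by the chondrogenic markers with at least 5 reads (horizontal axis, number of cells in brackets), colored by run, with medians as bars. *Vcan* has its highest median in cells with both markers in each tissue, and *Ncam1* has a lower zeugopod median in cells with both markers than in cells with either marker alone.

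Across cells, the correlation of *Vcan* with both markers was above 0 in every set. Its Spearman rho with *Sox9* was 0.334 (59 autopod cells, NXT0072), 0.153 (17, NXT0143), 0.646 (58 zeugopod cells, NXT0142) and 0.367 (65, NXT0143), and with *Col2a1* 0.385, 0.538, 0.349 and 0.510. In the autopod of NXT0143 the value with *Sox9* was near that of other genes, whose median there was 0.0881. The points of a set share a run and a tissue, and each value carries the size factor and depth of its cell. The mean over the sets, weighted by cells, was 0.420 with *Sox9* and 0.428 with *Col2a1*, rank 9 and rank 8 of 4897 genes. A weighted mean of at least 0.3 was reached by 0.776% of the genes for *Sox9* and 0.408% for *Col2a1*. Held at the number of genes read in a cell, the values were 0.411 and 0.417, and with CPM 0.436 and 0.466.

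**Figure D5:**
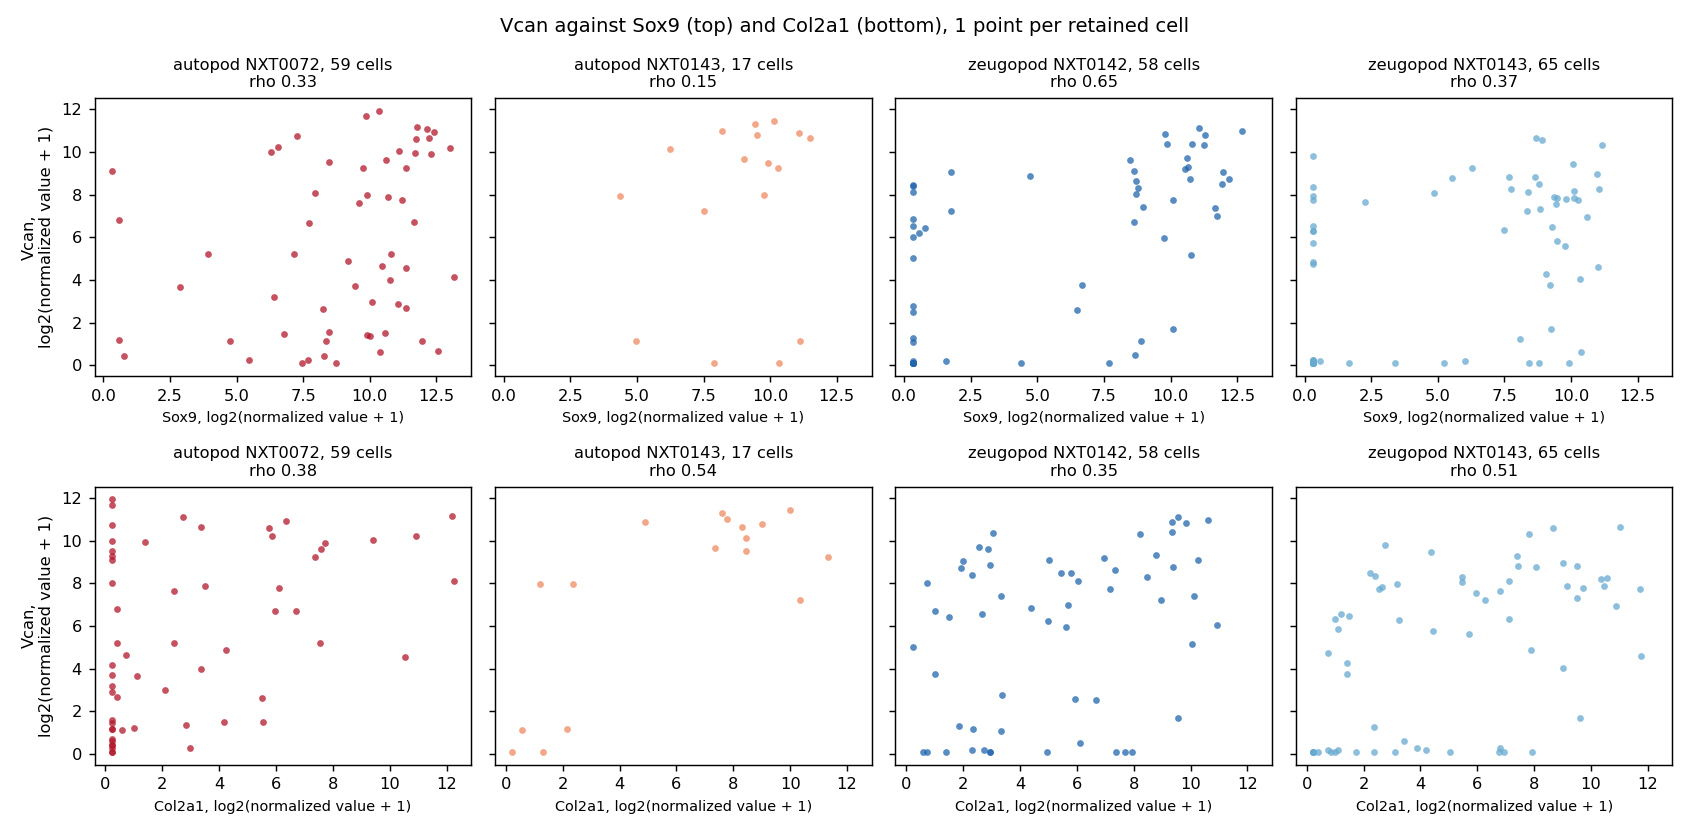
*Vcan* against *Sox9* (top) and *Col2a1* (bottom) in the 4 sets, both axes as log2(normalized value + 1), with 1 point per retained cell and Spearman rho above each panel. The correlation is above 0 in every panel, and in the zeugopod cells near the floor of *Sox9* reach from the floor of *Vcan* to high values.

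The genes whose level was most like that of *Vcan* were cartilage genes. Likeness was the weighted mean over the 4 sets of the rank correlation at a fixed number of genes read, and was highest for *Col9a2*, a cartilage collagen gene (0.512, from 0.432 to 0.631 in single sets), *Sox6* (0.486, 0.409 to 0.696) and *Sox5* (0.455, 0.242 to 0.585), transcription factors that act with SOX9. CPM placed *Sox6*, *Col9a2* and *Sox5* first, at 0.503, 0.492 and 0.450. The median over all genes was 0.00857. The other 6 genes had no partner above 0.335. The closest were *Hnrnpr* for *Cdh2* (0.335), *Marcks* for *Ncam1* (0.310), *Pcdh18* for *Fn1* (0.292), *Sox11* for *Cdh11* (0.285), *Dpm2* for *Itga5* (0.280) and *Supt6* for *Itgb1* (0.270). *Pcdh18* is itself a protocadherin, a relative of the cadherins. Among the next 2 of each were *Map7d1* and *Exoc7* for *Cdh2*, *Pdhx* and *Htt* for *Ncam1*, *Sh3rf1* and *Eif5b* for *Fn1*, *Med25* for *Cdh11*, *Ap1s1* and *Atp6v0a1* for *Itga5* and *Ppp1ca* and *H2afy2* for *Itgb1*, all between 0.241 and 0.296. Of the genes named here, *Supt6* (-0.228 to 0.585), *Htt* (-0.149 to 0.396), *Ppp1ca*, *Atp6v0a1* and *Pdhx* were below 0 in at least 1 set. Of the 21 genes found by this rule, 12 were also among the first 3 with CPM. *Marcks* was not, and with CPM *Ebf1* came first for *Ncam1* (0.276).

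*Ncam1* went the other way. With both markers its median normalized value was 0.258 in the autopod of NXT0072, 48.1 in the zeugopod of NXT0142 and 1.16 in that of NXT0143, and without them 18.4, 182 and 49.6. The ranges overlapped in the 3 sets, all starting at the floor. The differences of means were -1.37, -1.12 and -3.03, of which that in NXT0143 was below all but 0.163% of the tested genes. Cells without the markers also had more genes read, with medians of 3799.5 against 3133, 4582.5 against 4015.5 and 3929.5 against 3735, and the tested genes had median differences of -0.52, -0.31 and -0.03. Relative to these medians the difference of *Ncam1* was -0.85, -0.81 and -2.999, so that the first 2 sets fell short of 2-fold. The part of the number of genes read in these first 2 differences was not tested. In the zeugopod of NXT0143, *Ncam1* was detected in 23 of 39 cells with both markers (58.97%, 42.1 to 74.4) and 23 of 26 without (88.5%, 69.8 to 97.6), with intervals that overlap.

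By class, the median of *Ncam1* in the zeugopod of NXT0142 was 182 in the 20 cells with *Col2a1* alone and 277 in the 2 with *Sox9* alone, against 48.1 in those with both. In NXT0143 it was 75.4 in 19 cells, 75.6 in 4 cells and 1.16. Both classes with 1 marker thus lay above the cells with both in each run. Its weighted mean rho was -0.173 with *Sox9* and -0.238 with *Col2a1*, lower than in all but 2.21% and 1.47% of the genes. Weak correlations of this size in sparse counts are given as values only.

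None of the other 5 members with normalized values was past 2-fold in the same direction in the 3 sets. *Cdh2* was lower with both markers in the 3 compared sets, by 0.25, 1.12 and 0.89 on the log2 scale, and it was detected in 1 of 29 against 3 of 30, 9 of 34 against 11 of 24 and 6 of 39 against 11 of 26 cells. The intervals of these shares overlap in each set. *Cdh11* differed by -0.38, -1.10 and 0.84, *Fn1* by -0.76, -1.38 and 0.41 and *Itgb1* by 0.54, 0.07 and -0.69. *Itga5* was also below 0 in the compared sets, at -0.73, -0.28 and -0.82, but at 1.97 in the set left out. The tested genes had median differences of -0.52, -0.31 and -0.03. *Cdh2* lay above 64.2% of them in the autopod of NXT0072, and *Itga5* above 51.9% in the zeugopod of NXT0142. Relative to these medians *Cdh2* ranged from -0.87 to 0.27 and *Itga5* from -0.79 to 0.03. Neither was therefore below the median of the tested genes in each compared set. The weighted mean rho of *Cdh11*, *Fn1*, *Itga5* and *Itgb1* lay between -0.130 and 0.133 for *Sox9* and between -0.0975 and -0.0363 for *Col2a1*. That of *Cdh2* was -0.127 and -0.152.

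Across cells the members were only weakly related to each other. A cell had a median of 4 of the 8 genes detected, from 1 to 7, and 69 cells had exactly 4. The number of members followed the number of all genes read in it (rho 0.516, 0.487, 0.559 and 0.335 in the 4 sets). Among the 21 pairs of the 7 genes with normalized values, the weighted mean rho ran from -0.165 (*Ncam1* with *Vcan*) to 0.217 (*Cdh11* with *Itgb1*), with a median of 0.0635. It was positive in all 4 sets for 4 pairs, negative in all 4 for 3, and no pair reached 0.3. The 3 negative pairs were *Ncam1* with *Vcan*, *Itgb1* with *Vcan* and *Cdh2* with *Itga5*. At a fixed number of genes read the pairs ran from -0.145 to 0.112, so the positive end of the range was lower.

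Other genes of adhesion, and 12 regulators of condensation such as *Sox9* and *Tgfb2*, were read from lists of 93 genes, of which 38 were frequent enough to be tested, 6 regulators among them. Over all cells 5 were higher in the autopod by at least 1 and 5 lower, 13.2% each, against 6.06% and 13.4% of all tested genes. The 5 higher were *Sox9* (3.14), *Cdh3*, which encodes P-cadherin (2.14), the immunoglobulin-type *Cadm1* (1.51), *Ctnna1*, the alpha-catenin that ties cadherins to actin (1.498), and the collagen-binding integrin gene *Itga11* (1.04). The 5 lower were *Tgfb2* (-1.99), a signal known to act on condensation, and the matrix genes *Tnc* (-1.84), *Thbs1* (-1.68), *Fbn2* (-1.56) and *Nid1* (-1.12). *Cdh3* was past 2-fold in both run comparisons (2.59 within NXT0143 and 1.73 between NXT0072 and NXT0142), as were *Sox9* (3.18 and 3.07), *Cadm1* (1.56 and 1.17) and the 4 matrix genes. *Ctnna1* was not (2.81 and 0.38), nor *Itga11* (1.93 and 0.86) or *Tgfb2* (-0.39 and -2.91). Within NXT0143, 15 of the 38 genes were higher and 6 lower, against 18.4% and 9.21% of all tested genes, and between NXT0072 and NXT0142 5 were higher and 11 lower, against 6.64% and 24.3%. *Tnc* is also a tendon marker, and the cells with tendon markers given above were all zeugopod cells; their part in the differences of the matrix genes was not tested. P-cadherin thus differed between the tissues in the same direction in both run comparisons, unlike cadherin-11.

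In the comparison by chondrogenic markers, 2 of 37 genes of these lists were higher by at least 1 in the 3 sets and 2 lower, 5.41% each, against 0.388% and 1.16% of all tested genes. Both higher genes were among the 5 tested regulators of condensation, and no gene of the adhesion lists was higher in this way. *Sox6* was higher by 1.87, 2.23 and 3.22 and *Tgfb2* by 2.66, 1.11 and 1.27, in the order autopod NXT0072, zeugopod NXT0142 and zeugopod NXT0143. *Ctnna1* differed by -1.31, -2.13 and -1.84 and *Fbln1*, the gene of the matrix protein fibulin-1, by -1.30, -1.96 and -2.12. *Sox5* missed the call through the autopod of NXT0072, with 0.51, 3.35 and 2.61. The lists of integrins, of the partners of integrins inside the cell and of hyaluronan and proteoglycans held no gene that passed in the 3 sets, among 3, 7 and 5 tested. *Vcan* thus passed in the 3 sets while none of the 5 other tested genes of hyaluronan and proteoglycans did. Those 5 were *Hyal2*, *Sdc1*, *Sdc2*, *Sdc4* and *Gpc3*. The proteoglycan gene *Acan* and the gene *Hapln1* were too rare to be tested. In the 3 sets *Acan* differed by 0.21, 0.41 and 1.40 and *Hapln1* by 0.79, 0.27 and 0.93. *Has2*, *Has3*, *Bcan*, *Hmmr* and *Sdc3*, also untested, had differences of both signs.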

How the data were processed

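Cells were isolated by Fluidigm C1 microfluidics. The authors mapped reads with Bowtie2 to mm10 (GRCm38) and deposited counts of reads per gene in 225 cells. They also deposited normalized signal values for the 199 retained cells, made from counts, spike-in size factors centred within each batch of origin, and gene length. Of these values, 99.96% are whole multiples of the floor of their gene (tolerance 0.01), and size factors recovered from them ran from 0.0405 to 4.38. Within a batch, a spike-in scale keeps differences of RNA content between cells, which CPM removes. Between batches this does not hold, since the size factors were centred within each batch. The paper does not define the batch as the sequencing run, so the tissues within NXT0143 may have been centred apart.

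Groups came from the titles and runs from the labels. Differences are between means of log2(value + 1), called at an absolute value of 1, with no test, since each tissue is 1 pooled sample. CPM was computed from counts, and cells were thinned without replacement (seed 42). Intervals are Clopper-Pearson at 95%, and 3 cells set the limit for a count of 0. Python 3.11.15, numpy 2.4.6, scipy 1.17.1, pandas 2.3.3 and matplotlib 3.10.9 were used, and the calculations were tested on simulated data. Alternatives were detection limits, pseudocounts, CPM, thinning, centring, marker rules and runs. The difference between runs of a tissue and leaving out cells with any marker of another type were added after seeing the data. Named genes were the 8 members, both markers, the 2 genes of each list with the largest change in each direction past the threshold and the 3 genes most like each member, of which 1 is not reported here. *Fbn2*, *Nid1*, the values of *Sox5* by marker and the genes listed for the cells with *Cd44* were chosen after their values were seen. The same holds for *Ebf1* and the named genes of hyaluronan and proteoglycans. The 28 planned pairs became 21 because *Cd44* has no normalized value. The members and lists were chosen with earlier results of these data known.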

Additional observations from a re-analysis of the deposited data

Results flagged for a closer look

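The 26 cells that the authors did not retain were outside all comparisons. In them *Vcan* had at least 5 reads in 5 cells. The highest count was 155 reads. *Fn1* had at least 5 reads in 3 of these cells, *Ncam1* in 2 and *Cdh11* in 1, and *Cdh2*, *Itga5*, *Itgb1* and *Cd44* in none. These cells had a median of 25639.5 reads on genes, from 17 to 2926028.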

How the results depend on the processing

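No paired analysis was possible because the replicate numbers only name cells and no result comes from a test. The number of genes in at least 50% of cells of every set was 4, and 5 at 1 read. For autopod minus zeugopod, *Cdh11* turned to -0.66 within NXT0143, and without the 68 cells that had any marker of another type 4 genes were called instead of 2, *Cdh2* at -1.03 and *Vcan* at 1.06 being added. For the chondrogenic markers the calls went from 2 to 1 with a pseudocount of 10, with both forms of centring, with *Sox9* alone as marker, with both markers at 50 reads and without those 68 cells; *Ncam1* was the call lost each time, with a smallest difference of -0.75, -0.81, -0.99, -0.85, -0.45 and -0.62. *Vcan* stayed at 1.86 or more in each set that these alternatives compared, which was 2 sets with *Sox9* alone, 4 with both markers at 50 reads and 3 otherwise, so that the numbers of calls do not cover the same sets. Of the genes of the adhesion and regulator lists 15 instead of 5 were higher within NXT0143 and 11 instead of 5 lower between NXT0072 and NXT0142. Among the genes most like each member, 12 of 21 were shared with CPM. The causes were not tested. Leaving out cells with the required markers of another type removed no cell and gives no further value. Without a filter on the tested genes only the centring changes. Cells cannot serve as replicates.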
